A study of Homo sapiens with 18 samples.

Results

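The 45 genes described here encode the proteasome of human cells. They are the genes whose symbol runs PSMA to PSMG followed by a number, each read by its brightest probe set, among the 22465 genes that the arrays measured with a probe set of 1 symbol. They hold 7 core alpha subunits, 7 constitutive core beta subunits, 3 immunoproteasome subunits (PSMB8, PSMB9 and PSMB10), 2 tissue-restricted core subunits (PSMA8 of meiotic cells and PSMB11 of the thymus), 5 ATPases (PSMC) and 9 non-ATPase subunits (PSMD) of the regulatory particle, 3 chaperones of its assembly (PSMD5, PSMD9 and PSMD10), 4 activator genes (PSME), the inhibitor gene PSMF1 and 4 chaperones of core assembly (PSMG). PSMC5, PSMD7 and PSMD13 also fit the naming rule and are not analysed here, because the probe set annotation used does not list them. The 18 whole-transcript arrays came from 2 multiple myeloma cell lines, KMS12-BM and JJN3, each kept for 24 h with the solvent DMSO, with amiloride or with TG003, on 3 arrays for each of the 6 groups. Amiloride is a diuretic that blocks sodium channels, and TG003 is an inhibitor of CLK kinases, which phosphorylate splicing factors. Amiloride was at 0.1 mM in KMS12-BM and at 0.4 mM in JJN3, and TG003 was at 0.4 mM in both lines, as the order of the 3 doses in the labels was read. Both lines grew in RPMI medium, with a share of serum that differed between them.

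The proteasome is a barrel of alpha and beta rings that degrades proteins tagged with ubiquitin, and a regulatory particle at its end recognises, unfolds and threads them in. Among the beta subunits PSMB5, PSMB6 and PSMB7 carry the active sites, and PSMB8, PSMB9 and PSMB10 replace them in the immunoproteasome, whose products feed antigen presentation. Plasma cell tumours secrete large amounts of antibody, and drugs that block PSMB5 are a standard treatment of multiple myeloma. When the proteasome is blocked, the transcription factor NFE2L1 raises the subunit genes together, through antioxidant response elements in their promoters.

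All values are log2 intensities that the authors made with RMA, a difference of 1 being a doubling. Changes are given ± the standard error of a limma fit over 6 group means, with n = 3 arrays in each group and p-values adjusted by Benjamini-Hochberg over all 22465 genes, and a gene is said to have risen or fallen at an adjusted p under 0.05. Nothing in the labels says that the 3 arrays came from separate cultures, and p-values then reflect the spread between these arrays, which may be technical. Each array reads a bulk of cells, in which fewer cells of a kind and less RNA per cell cannot be told apart. The level of one probe set is not set against that of another. Of the 45 genes, 43 lay above a background reference of 6.99 in at least 1 group, and 38 did so in all 6. The reference is the 95th percentile of 92 spike-in control probe sets and may itself hold signal. PSMB11 and PSMG4 never passed it, and PSMA8, PSMB8, PSMB9, PSMB10 and PSMD9 passed it in some groups. The median standard deviation within a group was 0.12 over these genes. For 20 of the 45 genes RefSeq names a pseudogene, so their probe sets may also read near-identical copies. They are PSMA1, PSMA2, PSMA3, PSMA5, PSMA6, PSMA7, PSMB3, PSMB7, PSMC1 (with 13 pseudogenes), PSMC2, PSMC3 and PSMC6. The others are PSMD2, PSMD4, PSMD8, PSMD10, PSMD12, PSMD14, PSME2 and PSMG3. Of the 10 plasma cell markers 9 lay above the reference in at least 1 group, with the exception of SLAMF7, and 5 in all 6 groups, while JCHAIN and SDC1 lay below it in all KMS12-BM groups and CD38 in all JJN3 groups. By the same measure 0 of 7 T and NK cell, 0 of 5 stromal and 0 of 4 erythroid markers passed it, with 1 of 6 myeloid markers (CD68) and 2 of 5 B cell markers (CIITA and PAX5). One of the KMS12-BM amiloride arrays, array 3, carries the other line's name in its cell line field. Its values correlated at 0.998 on average with the rest of its group and at 0.932 with the JJN3 amiloride arrays. Without it 10 of the 45 genes rose and 9 fell with amiloride in KMS12-BM, in place of 11 and 10.

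In KMS12-BM, amiloride moved proteasome genes in both directions. The 3 chaperones of regulatory particle assembly rose to between 1.61-fold and 1.77-fold of their level with DMSO, while the ubiquitin receptor gene PSMD4, the scaffold genes PSMD1 and PSMD2 and 2 of the 3 immunoproteasome genes fell. Of the 45 genes 11 rose, which is 24.4%, against 17.0% of all genes, and 10 fell, which is 22.2%, against 13.6% of all genes. Most proteasome genes are well expressed, and among the 8315 genes above the reference 36.0% rose and 24.2% fell. The median change of the 45 genes was -0.09, that of all genes -0.025 and that of the genes above the reference 0.086, of the opposite sign. None of the 19 core genes (PSMA and PSMB) rose and 5 fell, with 2 higher and 6 lower at an unadjusted p under 0.05 in limma. Of the 17 regulatory particle genes (PSMC and PSMD) 8 rose and 5 fell. These include the 3 assembly chaperones, and of the 14 subunits alone 5 rose and 5 fell, with a median change of -0.05.

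The chaperone genes gave the clearest rise. PSMD5, the assembly chaperone of the ATPases PSMC1 and PSMC2, read 11.75, 12.10 and 11.67 on the DMSO arrays and 12.54, 12.75 and 12.70 on the amiloride arrays, a change of 0.82 ± 0.12 (adjusted p = 3.6e-05). PSMD9, the chaperone of PSMC3 and PSMC6, read 7.77, 8.09 and 7.75 with DMSO and 8.57, 8.79 and 8.65 with amiloride, a change of 0.80 ± 0.10 (adjusted p = 7.6e-06). PSMD10, the chaperone of PSMC4 and PSMC5 that is also called gankyrin, read 10.83, 10.80 and 10.85 with DMSO and 11.51, 11.62 and 11.39 with amiloride, a change of 0.68 ± 0.07 (adjusted p = 2.2e-06). In all 3 genes every amiloride array lay above every DMSO array. Of the ATPases they bind, PSMC1, PSMC3 and PSMC6 rose too, while PSMC2 changed by 0.04 (adjusted p = 0.75) and PSMC4 by -0.31 (adjusted p = 0.09). The lid subunit PSMD6 rose by 0.60 (adjusted p = 1e-04), the core chaperone PSMG2 by 0.46 (adjusted p = 0.001) and PSMF1, an inhibitor of the core in vitro, by 0.43 (adjusted p = 0.001). After a further quantile normalization PSMF1 was at adjusted p = 0.053. Of the activators PSME3 rose by 0.28 (adjusted p = 0.015), while PSME1, PSME2 and PSME4 changed by -0.25, -0.29 and 0.03 and did not pass the test.

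The largest fall was that of PSMA3, a subunit of the outer ring of the core. It read 11.03, 11.39 and 10.87 with DMSO and 10.25, 9.86 and 9.89 with amiloride, a change of -1.10 ± 0.14 (adjusted p = 7.9e-06). Its groups did not overlap. PSMD4, a ubiquitin receptor, read 9.08, 9.24 and 9.08 with DMSO and 8.51, 8.45 and 8.28 with amiloride, a change of -0.72 ± 0.08 (adjusted p = 2.6e-06). PSMD2, the scaffold that docks shuttle factors, read 12.75, 12.68 and 12.66 with DMSO and 11.94, 12.20 and 11.88 with amiloride, a change of -0.69 ± 0.09 (adjusted p = 1.5e-05). In both genes all amiloride arrays lay below all DMSO arrays. PSMD14, the deubiquitinase of the lid, changed by -0.63 ± 0.09 (adjusted p = 2.6e-05), the scaffold PSMD1 by -0.54 ± 0.11 (adjusted p = 0.0013) and the alpha subunit PSMA1 by -0.49 ± 0.10 (adjusted p = 0.00074).

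The other genes with adjusted p under 0.05 in this comparison were less firm. The ATPase PSMC1 (0.43) was at adjusted p = 0.12 without DMSO array 3 and again without amiloride array 2. PSMC6 (0.36) was at 0.066 and the lid subunit PSMD12 (0.38) at 0.051 without DMSO array 3. PSMC3 (0.40) lost its call without any of 10 of the 18 arrays, with adjusted p from 0.051 to 0.25. These were DMSO arrays 2 and 3, amiloride arrays 2 and 3 and 6 arrays of groups outside the comparison. PSMD11 (-0.27) was at 0.079 without DMSO array 1 and at 0.063 without amiloride array 3. The beta subunit PSMB2 (-0.21) was at 0.099, 0.054 and 0.12 without DMSO array 1, DMSO array 2 and amiloride array 2. Without DMSO array 3 the number of genes that rose was 7 in place of 11. After a further quantile normalization 7 rose and 15 fell.

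**Figure D1:**
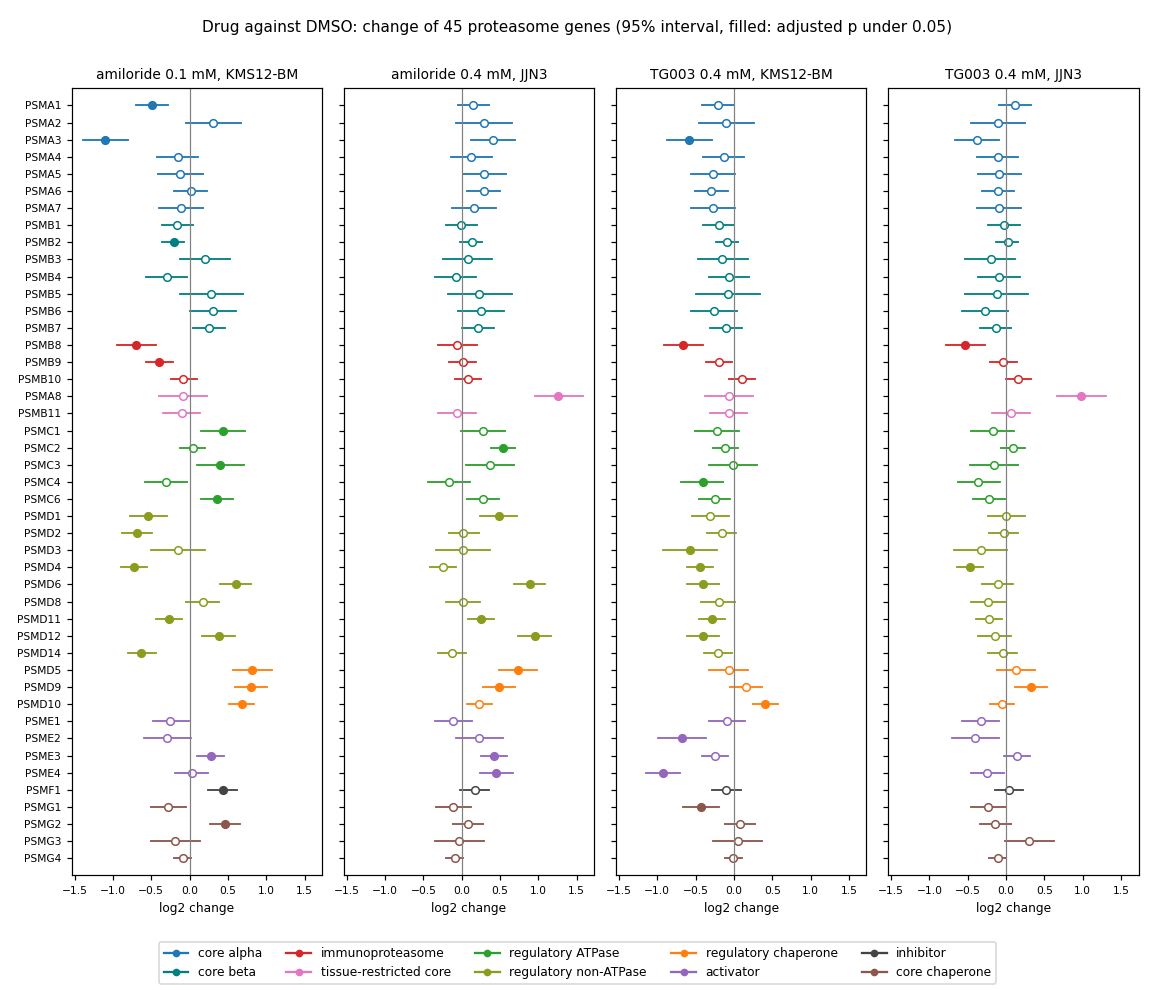
Log2 change of the 45 proteasome genes with each drug against DMSO (horizontal axis), 1 row a gene, coloured by class, in 4 panels for drug and line. Points are the estimates of the limma fit over 3 arrays a group, bars their 95% intervals without adjustment, and filled points have an adjusted p under 0.05. With amiloride the chaperones PSMD5, PSMD9 and PSMD10 lie to the right in KMS12-BM while PSMA3 lies far to the left at -1.10, and in JJN3 no filled point lies left of 0.

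In JJN3, amiloride raised 10 of the 45 genes and lowered 0. The 10 are 22.2% of the genes, against 8.65% of all genes that rose and 20.0% of the genes above the reference. The 0 stand against 6.12% of all genes that fell and 12.3% of the genes above the reference. At an unadjusted p under 0.05 in limma 16 genes were higher and 1 was lower, and with only the genes above the reference tested, or after a further quantile normalization, 1 fell. PSMD4, which fell in the other drug comparisons, had the lowest estimate here, -0.25, and did not pass the test. The median change was 0.17, that of all genes -0.018 and that of the genes above the reference 0.061. After a further quantile normalization the median of the 45 genes was 0.08. Of the 10 genes 7 belong to the 17 of the regulatory particle and its chaperones, 2 are activators, and 1 is the tissue-restricted PSMA8. None of the 14 constitutive core genes rose or fell, with 3 higher and 0 lower at an unadjusted p under 0.05, although all 7 alpha subunits had estimates above 0, from 0.12 to 0.41.

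PSMA8 replaces an alpha subunit in the proteasome of spermatocytes. It read 7.37, 7.40 and 7.30 with DMSO in JJN3, just above the background reference, and 8.50, 8.74 and 8.62 with amiloride, a change of 1.26 ± 0.15 (adjusted p = 3.8e-05). The groups lay more than 1 log2 unit apart and did not overlap. In KMS12-BM its 9 arrays stayed below the reference, between 4.67 and 5.01. PSMA7, the subunit it replaces, changed by 0.16 with a 95% interval from -0.13 to 0.45 (adjusted p = 0.59).

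The lid subunits PSMD12 and PSMD6 rose next. Of the 9 non-ATPase subunits 4 rose, with a median change of 0.02. PSMD3, PSMD8 and PSMD14 did not pass the test, with means of 11.60, 12.44 and 11.65 with DMSO and 11.62, 12.45 and 11.52 with amiloride. PSMD12 read 10.95, 10.97 and 10.76 with DMSO and 11.81, 11.72 and 12.00 with amiloride, a change of 0.95 ± 0.10 (adjusted p = 1.5e-05). PSMD6 read 10.18, 10.18 and 10.10 with DMSO and 11.00, 10.95 and 11.15 with amiloride, a change of 0.89 ± 0.10 (adjusted p = 1.8e-05). The arrays of both genes did not overlap between the groups. The chaperone PSMD5 read 10.58, 10.81 and 10.59 with DMSO and 11.26, 11.42 and 11.48 with amiloride, a change of 0.73 ± 0.12 (adjusted p = 0.00051), and PSMD9 changed by 0.49 ± 0.10 (adjusted p = 0.0027). PSMD9 stood at 6.50, 6.51 and 6.47 on the DMSO arrays of this line, where its means with DMSO, amiloride and TG003 (6.49, 6.98 and 6.83) all lay below the reference. PSMD10 changed by 0.23 (adjusted p = 0.056).

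The ATPase PSMC2 read 13.25, 13.32 and 13.18 with DMSO and 13.74, 13.69 and 13.93 with amiloride, a change of 0.54 ± 0.08 (adjusted p = 0.00016), with no overlap. The scaffold PSMD1, which had fallen in KMS12-BM, read 12.45, 12.41 and 12.11 with DMSO and 12.83, 12.77 and 12.82 with amiloride, a change of 0.48 ± 0.11 (adjusted p = 0.0084), and was at adjusted p = 0.051 without DMSO array 3. Of the activators, PSME4, which caps the core in the nucleus, changed by 0.45 ± 0.10 (adjusted p = 0.0061) and PSME3, the nuclear activator, by 0.42 ± 0.08 (adjusted p = 0.0021). PSMD11 (0.25) lost its call without any of 10 of the 18 arrays, with adjusted p from 0.052 to 0.22. These were DMSO arrays 2 and 3, amiloride arrays 1 and 2 and 6 arrays of groups outside the comparison. The 2 genes of the other activator did not pass the test, with PSME1 at -0.11 (adjusted p = 0.66) and PSME2 at 0.23 (adjusted p = 0.42).

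**Figure D2:**
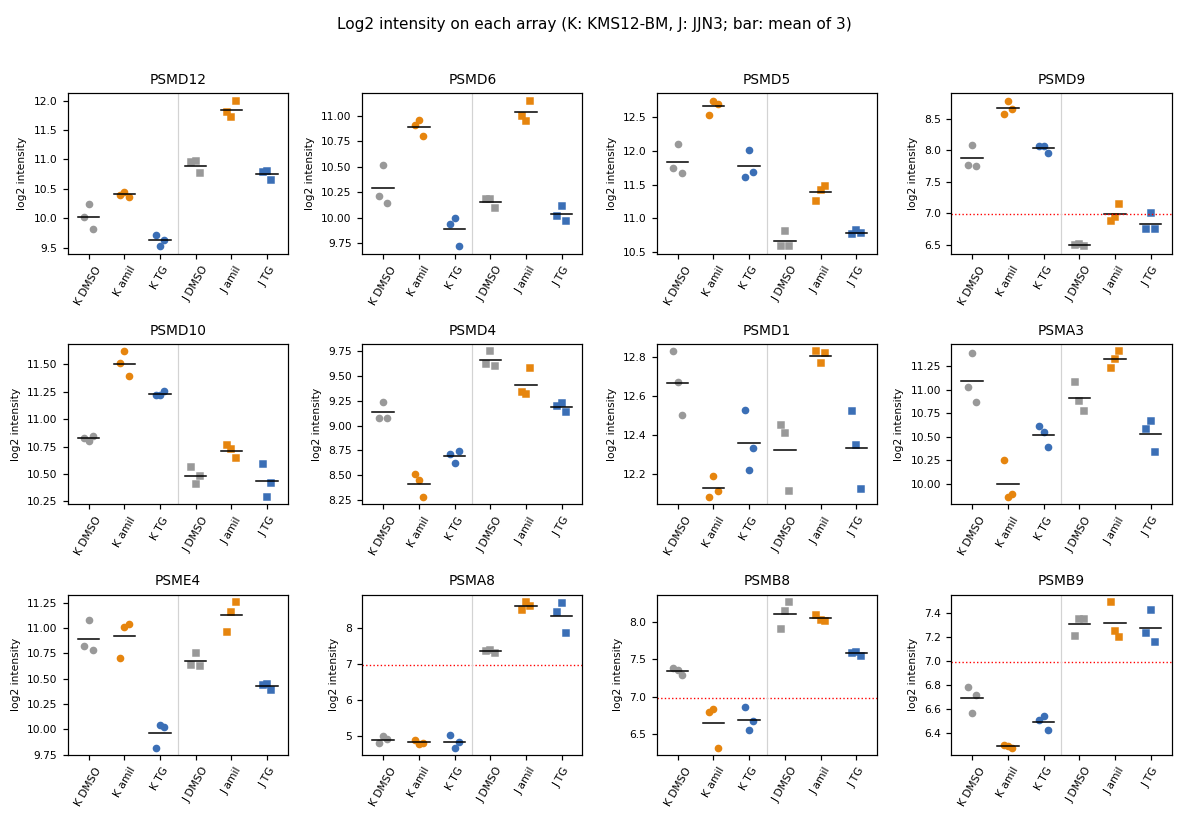
Log2 intensity (vertical axis) of 12 proteasome genes on each of the 18 arrays, by group (K for KMS12-BM, J for JJN3, amil for amiloride, TG for TG003). Points are arrays, black bars the means of 3, and the dotted line, where it falls within a panel, is the background reference of 6.99. PSMD5, PSMD6, PSMD9 and PSMD12 lie higher with amiloride than with DMSO in both lines, PSMA3 and PSMD1 lie lower in KMS12-BM and higher in JJN3, and PSMA8 lies above the reference in JJN3 alone.

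The amiloride response itself differed between the lines for 14 of the 45 genes, by the interaction term of the same fit. Line and dose cannot be told apart here, since amiloride was at 0.1 mM in one line and 0.4 mM in the other. For 13 genes the response was higher in JJN3, which is 28.9%, against 8.68% of all genes and 17.4% of those above the reference, and for 1 it was lower, which is 2.22%, against 9.78% and 20.5%. The median difference of the 45 genes was 0.17, that of all genes -0.003 and that of the genes above the reference -0.054. PSMA3 had the largest difference, 1.51 ± 0.19 (adjusted p = 4.6e-05). Its JJN3 arrays read 11.08, 10.88 and 10.77 with DMSO and 11.23, 11.33 and 11.41 with amiloride, a change of 0.41 that did not pass the test (adjusted p = 0.055). PSMA8 followed with 1.35 ± 0.21 (adjusted p = 0.00027), PSMD1 with 1.02 ± 0.16 (adjusted p = 0.00028), PSMD2 with 0.71 ± 0.13 (adjusted p = 0.00086), PSMA1 with 0.65 ± 0.14 (adjusted p = 0.003) and PSMB8 with 0.64 ± 0.17 (adjusted p = 0.013). The other 7, PSMD12, PSMD11, PSMD14, PSMC2, PSMD4, PSMB9 and PSMB2, had differences from 0.57 down to 0.34. PSMD10 was the gene with the lower response in JJN3, by -0.46 ± 0.11 (adjusted p = 0.0056). PSMD5 and PSMD9 had differences of -0.10 (95% interval -0.45 to 0.26) and -0.31 (95% interval -0.60 to -0.01).

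The 250 bases before to 50 after the start of a gene were read from RefSeq's promoters on GRCh38.p14 for 39 of the 45 genes. No promoter was read for PSMA7, PSMB1, PSMB6, PSMB7, PSMD4 and PSMG3, so the motif counts leave these genes out. The antioxidant response element core TGACNNNGC, on either strand, was found in 13 of the 39, which is 33.3%, against 13.6% of all 27305 promoters of that length. The CCAAT box, to which the factor NF-Y binds, was in 17, which is 43.6%, against 35.7%. The interferon-stimulated response element core, which is GAAA, any 2 bases and GAAA again, was in 6, which is 15.4%, against 3.6%. The CRE palindrome TGACGTCA was in 0 of them, against 2.0%. The median GC content was 62.0% in these 39 promoters and 58.3% in all. A match is a description of the letters and not a bound site. The motif TGACNNNGC does not overlap with CCAAT in any sequence shown.

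Shown are the promoters of PSMD5, PSMD9 and PSMD12, which rose with amiloride in both lines and hold the antioxidant core, with that of PSMD10, which rose in KMS12-BM and holds a CCAAT box instead. Capitals mark the motifs, and those on the opposite strand appear as their reverse complement, GCNNNGTCA for the antioxidant core and ATTGG for the CCAAT box. They are written 5′ to 3′ on the strand of the gene. PSMD5 is at chr9:120842873-120843172 on the minus strand, PSMD9 at chr12:121888540-121888839 on the plus strand, PSMD12 at chr17:67366528-67366827 on the minus strand and PSMD10 at chrX:108091493-108091792 on the minus strand.
PSMD5: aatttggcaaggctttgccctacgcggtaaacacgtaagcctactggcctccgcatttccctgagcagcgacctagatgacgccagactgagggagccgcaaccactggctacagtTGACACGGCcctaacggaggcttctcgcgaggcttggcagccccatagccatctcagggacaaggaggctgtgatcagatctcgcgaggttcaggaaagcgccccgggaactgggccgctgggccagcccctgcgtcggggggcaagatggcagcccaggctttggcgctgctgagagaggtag
PSMD9: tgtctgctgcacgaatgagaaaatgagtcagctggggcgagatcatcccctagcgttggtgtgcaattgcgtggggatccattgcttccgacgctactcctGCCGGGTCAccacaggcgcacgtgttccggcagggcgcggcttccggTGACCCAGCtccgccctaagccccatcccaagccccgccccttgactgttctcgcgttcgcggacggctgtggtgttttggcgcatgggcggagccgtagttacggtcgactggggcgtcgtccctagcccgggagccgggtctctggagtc
PSMD12: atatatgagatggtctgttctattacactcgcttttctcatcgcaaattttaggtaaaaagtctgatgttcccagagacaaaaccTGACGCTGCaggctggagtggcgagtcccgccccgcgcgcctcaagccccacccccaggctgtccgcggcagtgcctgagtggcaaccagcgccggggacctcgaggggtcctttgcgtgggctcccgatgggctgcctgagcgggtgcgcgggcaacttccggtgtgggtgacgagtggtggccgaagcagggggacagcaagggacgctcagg
PSMD10: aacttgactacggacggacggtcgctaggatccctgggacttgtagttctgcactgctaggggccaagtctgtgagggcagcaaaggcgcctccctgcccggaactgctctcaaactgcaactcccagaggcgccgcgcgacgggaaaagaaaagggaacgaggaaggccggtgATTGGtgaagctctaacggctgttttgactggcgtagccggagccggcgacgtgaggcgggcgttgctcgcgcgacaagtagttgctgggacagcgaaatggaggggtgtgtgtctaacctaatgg

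The antioxidant core starts at -134 from the gene start in PSMD5, at -165 in PSMD12 and at -149 and -102 in PSMD9, while PSMD10 has its CCAAT box at -76. Of the 13 genes with the core 4 rose and 2 fell with amiloride in KMS12-BM, and of the 26 without it 7 rose and 7 fell. In JJN3 5 of the 13 rose and 0 fell, and 5 of the 26 rose and 0 fell. The 2 with the core that fell in KMS12-BM were PSMD1, with the core at 39, and PSMB9, with it at -148. PSMB3, PSMC4, PSMD3, PSME1, PSME2 and PSMG1 also hold it and rose in neither line, and PSMB9 did not rise in JJN3 either. PSMD6 and PSME3, which rose in both lines, hold a CCAAT box at -192 and at -12 and not the antioxidant core within this window.

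TG003, at the same dose in both lines, lowered 11 proteasome genes in KMS12-BM and raised 1. The 11 are 24.4% of the 45, against 6.52% of all genes and 14.4% of those above the reference. The 1 is 2.22%, against 8.30% of all genes and 16.3% of those above the reference. The median was -0.20, that of all genes -0.009 and that of the genes above the reference 0.022. The TG003 and amiloride comparisons of a line use the same DMSO arrays. Of the 17 regulatory particle genes 6 fell and 1, the chaperone PSMD10, rose. Among the 14 subunits of the particle 6 fell and 0 rose. Of the 4 activators 2 fell, and of the 14 constitutive core genes 1 fell, PSMA3. In the fit of these 2 groups alone 7 genes fell, and without TG003 array 2 6 fell. With the array numbers as a replicate block 14 fell, and PSMA1 (-0.21, adjusted p = 0.043), PSMD1 (-0.31, adjusted p = 0.03) and PSME3 (-0.25, adjusted p = 0.044) were the added genes.

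PSME4 fell most. It read 10.82, 11.08 and 10.78 with DMSO and 9.82, 10.04 and 10.02 with TG003, a change of -0.93 ± 0.10 (adjusted p = 1.9e-05). PSME2, the beta subunit of the interferon-inducible activator, read 12.42, 12.61 and 12.31 with DMSO and 11.90, 11.63 and 11.77 with TG003, a change of -0.68 ± 0.15 (adjusted p = 0.0041). The groups of both genes did not overlap. The probe set of the pseudogene PSME2P2 changed by -0.81 (adjusted p = 0.021) in the same arrays, and the signals of a gene and its near-identical copy cannot be told apart. PSME1, which pairs with PSME2, changed by -0.09 (adjusted p = 0.75).

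Among the core genes PSMA3 read 10.62, 10.55 and 10.39 with TG003, against the DMSO values given above, a change of -0.58 ± 0.14 (adjusted p = 0.0077). In the regulatory particle PSMD4 read 8.71, 8.62 and 8.74 with TG003, a change of -0.44 ± 0.08 (adjusted p = 0.0013). All TG003 arrays of both genes lay below all DMSO arrays. The lid subunit PSMD3 changed by -0.57 ± 0.16 (adjusted p = 0.026), but was at adjusted p = 0.09, 0.078 and 0.15 without DMSO array 1, DMSO array 3 and TG003 array 2. The gene that rose was PSMD10, which read 11.22, 11.22 and 11.26 with TG003, all above the DMSO arrays, a change of 0.41 ± 0.07 (adjusted p = 0.0013).

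The remaining falls were smaller and less firm. The lid subunit PSMD6 changed by -0.40 and was at adjusted p = 0.08 in the fit of these 2 groups alone. The core chaperone PSMG1 (-0.43) was at 0.064 and 0.07, and PSMD12 (-0.40) at 0.057 and 0.055, without DMSO array 2 and without TG003 array 2. PSMD11 (-0.28) was at 0.12 and 0.065 without DMSO arrays 1 and 2, and at 0.11 and 0.083 without TG003 arrays 2 and 3. The ATPase PSMC4 (-0.41) lost its call without any of 8 arrays, with adjusted p from 0.051 to 0.17. These were DMSO arrays 1 and 3, TG003 arrays 2 and 3 and 4 arrays of other groups.

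In JJN3, TG003 changed few of these genes. Of the 45, 2 rose, which is 4.44%, against 3.74% of all genes and 7.08% of those above the reference, and 2 fell, which is 4.44%, against 5.64% and 12.0%. At an unadjusted p under 0.05 in limma 2 were higher and 11 lower. The median was -0.11, that of all genes 0.021 and that of the genes above the reference -0.016, and it was -0.07 after a further quantile normalization. PSMA8 read 8.45, 8.70 and 7.86 with TG003, all above the DMSO arrays, a change of 0.98 ± 0.15 (adjusted p = 5e-04). PSMD4 read 9.62, 9.75 and 9.60 with DMSO and 9.20, 9.23 and 9.14 with TG003, a change of -0.47 ± 0.08 (adjusted p = 0.0014), again with no overlap. PSMB8 fell by 0.53 on the log2 scale, as given with the immunoproteasome genes. PSMD9 changed by 0.33 (adjusted p = 0.044), with both group means below the reference, and lost that call without any of 11 of the 18 arrays, which were each JJN3 DMSO array, each TG003 array of both lines, JJN3 amiloride array 2 and KMS12-BM amiloride array 3, at adjusted p from 0.051 to 0.16. With the arrays centred on their medians 1 gene rose, PSMA8. With the replicate block PSMD11 (-0.22) also passed, at adjusted p = 0.031.

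The TG003 response differed between the lines for 3 genes, 2 of them higher in JJN3, which is 4.44%, against 1.92% of all genes and 4.11% of those above the reference, and 1 lower, which is 2.22%, against 2.64% and 5.54%. The median difference was 0.13, that of all genes 0.021 and that of the genes above the reference -0.056. PSMA8 had a difference of 1.04 ± 0.21 (adjusted p = 0.0093) and PSME4 one of 0.69 ± 0.14 (adjusted p = 0.012). In JJN3 PSME4 read 10.64, 10.75 and 10.63 with DMSO and 10.44, 10.45 and 10.39 with TG003, a change of -0.25 (adjusted p = 0.17), so its groups did not overlap although the test was not passed. PSMD10 had a difference of -0.46 ± 0.11 (adjusted p = 0.021), and was at adjusted p = 0.054 without JJN3 DMSO array 1. After a further quantile normalization 4 genes were higher in JJN3 and 0 lower. For PSMA3 and PSMD4 the difference was 0.20 (95% interval -0.21 to 0.61) and -0.03 (95% interval -0.27 to 0.22).

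The lines differed in DMSO for 32 of the 45 genes. In JJN3 14 were higher, which is 31.1%, against 18.9% of all genes and 33.0% of those above the reference, and 18 were lower, which is 40.0%, against 22.3% and 40.9%. The median was -0.14, that of all genes -0.02 and that of the genes above the reference -0.099, and it was -0.09 after a further quantile normalization. Line and serum share cannot be told apart. All 3 immunoproteasome genes were higher in JJN3, all 3 regulatory particle chaperones and 4 of the 5 ATPases were lower, and the constitutive core genes went both ways, with 5 higher and 6 lower of 14.

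PSMA8 differed most, with 4.79, 4.99 and 4.91 in KMS12-BM, under the background reference, and 7.37, 7.40 and 7.30 in JJN3, a difference of 2.46 ± 0.15 (adjusted p = 7.8e-10). Among the catalytic subunits PSMB6, of the caspase-like site, read 12.30, 12.21 and 12.37 in KMS12-BM and 13.85, 13.92 and 13.68 in JJN3, a difference of 1.52 ± 0.14 (adjusted p = 1.2e-07). PSMB5, of the chymotrypsin-like site, read 10.38, 9.93 and 9.96 in KMS12-BM and 9.02, 8.64 and 8.43 in JJN3, a difference of -1.39 ± 0.20 (adjusted p = 1.5e-05). PSMB7, of the trypsin-like site, read 13.92, 13.89 and 13.81 in KMS12-BM and 12.53, 12.53 and 12.46 in JJN3, a difference of -1.37 ± 0.10 (adjusted p = 5.9e-09). The arrays of the lines did not overlap for any of these 4 genes, and PSMB6 stood higher in JJN3 where PSMB5 and PSMB7 stood lower.

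In the regulatory particle the ATPase PSMC2 read 15.04, 15.10 and 14.88 in KMS12-BM and 13.25, 13.32 and 13.18 in JJN3, a difference of -1.75 ± 0.08 (adjusted p = 1.2e-11). The chaperones PSMD5 and PSMD9, whose values with DMSO are given above, differed by -1.18 ± 0.12 (adjusted p = 3.2e-07) and -1.38 ± 0.10 (adjusted p = 5.8e-09), and PSMD10 by -0.34 ± 0.07 (adjusted p = 0.0013). PSMD12 was the lid gene with the largest difference, 0.87 ± 0.10 (adjusted p = 1.7e-06). The core chaperones PSMG1, at 0.86 ± 0.11 (adjusted p = 4.6e-06), and PSMG3, at 0.75 ± 0.15 (adjusted p = 0.00059), were higher in JJN3. Of the genes not yet named, PSMB4 (0.61), PSMA5 (0.53), PSMA7 (0.48), PSMB2 (0.26) and the ubiquitin receptor PSMD4 (0.52) were higher in JJN3 as well. The core genes PSMA1 (-1.16), PSMA2 (-1.14) and PSMB1 (-0.80), the ATPases PSMC1 (-1.12), PSMC6 (-0.75) and PSMC3 (-0.67), the scaffold PSMD2 (-0.33), the activator PSME3 (-0.37) and the inhibitor PSMF1 (-0.53) were lower, at an adjusted p of at most 0.0088 over these 14.

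Calls near the threshold were PSMD8 (0.28), at adjusted p = 0.051 with the array numbers as a replicate block and at 0.051 to 0.1 without KMS12-BM array 1, 2 or 3 or JJN3 array 1 or 3, and PSMD1 (-0.34), at 0.12, 0.051 and 0.13 without KMS12-BM array 1, KMS12-BM array 2 and JJN3 array 3. PSMA6 (-0.32) was at 0.12 and 0.082 without KMS12-BM array 2 and JJN3 array 1. PSME1 (-0.32) was at 0.053 to 0.14 without KMS12-BM array 3 or any of the JJN3 arrays. With the block the activator PSME4 (-0.22) was at adjusted p = 0.042 and the core chaperone PSMG2 (0.24) at 0.023, neither of which passed without it.

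**Figure D3:**
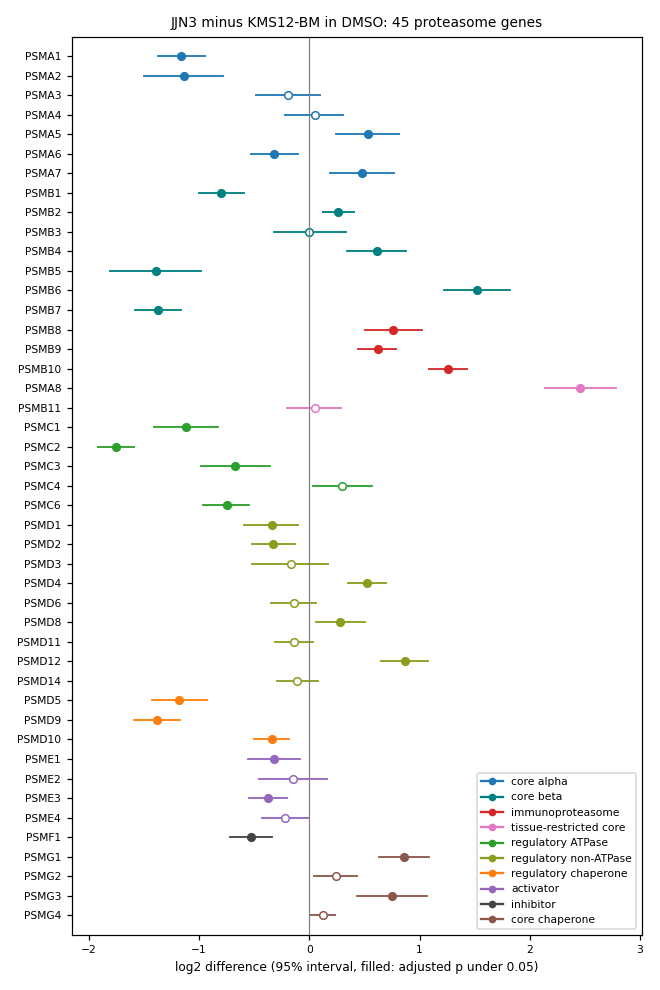
Log2 difference between JJN3 and KMS12-BM in DMSO (horizontal axis) for the 45 proteasome genes, 1 row a gene, coloured by class. Points are limma estimates over 3 arrays a line, bars their 95% intervals without adjustment, and filled points have an adjusted p under 0.05. The immunoproteasome genes lie to the right of 0, the regulatory chaperones to the left, and PSMA8 lies farthest right at 2.46.

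Of the immunoproteasome genes PSMB8 fell with both drugs in KMS12-BM and PSMB9 fell with amiloride, whereas their constitutive partners did not pass the test. PSMB8, which replaces PSMB5, read 7.39, 7.36 and 7.29 with DMSO, 6.79, 6.84 and 6.32 with amiloride and 6.86, 6.55 and 6.67 with TG003. It fell by 0.70 with amiloride (adjusted p = 0.00019) and by 0.66 with TG003 (adjusted p = 0.0012) on the log2 scale, with no overlap, and both drugs took it below the background reference. In JJN3 it read 7.91, 8.15 and 8.27 with DMSO, 8.10, 8.03 and 8.02 with amiloride and 7.59, 7.60 and 7.55 with TG003. There it changed by -0.06 with amiloride (adjusted p = 0.86) and fell by 0.53 with TG003 (adjusted p = 0.0092), the latter at 0.053 without JJN3 DMSO array 3.

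PSMB9, which replaces PSMB6, read 6.78, 6.57 and 6.72 with DMSO and 6.30, 6.29 and 6.28 with amiloride in KMS12-BM, all below the reference, a change of -0.40 ± 0.08 (adjusted p = 0.0012). Its other drug changes ran from -0.20 to 0.01 and did not pass the test. PSMB10, which replaces PSMB7, changed by -0.08 and 0.08 with amiloride and by 0.11 and 0.16 with TG003 in KMS12-BM and JJN3, and none of these passed the test. PSMB10 lay below the reference in all KMS12-BM groups, with means from 5.72 to 5.90. In DMSO, JJN3 was higher than KMS12-BM by 1.26 ± 0.08 (adjusted p = 1.2e-09) for PSMB10, by 0.76 ± 0.12 (adjusted p = 4.7e-05) for PSMB8 and by 0.62 ± 0.08 (adjusted p = 9.4e-06) for PSMB9. PSMB8 and PSMB9 have 8 probe sets each, and over these the amiloride change in KMS12-BM ran from -0.70 to -0.59 and from -0.40 to -0.35. The probe sets used for these genes are named after alternative haplotypes of chromosome 6. The 8 of a gene may thus be copies of the same design, and their likeness is no separate evidence. The constitutive PSMB5, PSMB6 and PSMB7 did not pass the test with either drug in either line, with changes from -0.27 to 0.31.

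Within an array the log2 ratio of PSMB8 to PSMB5 changed by -0.98 with amiloride and by -0.58 with TG003 in KMS12-BM, where the 3 drug arrays lay below all DMSO arrays (exact permutation p = 0.1 each). With 3 arrays against 3 the exact two-sided permutation test cannot go below 0.1, and 15 such comparisons were made, so none can pass. In JJN3 the change was -0.29 with amiloride (exact permutation p = 0.5) and -0.41 with TG003 (exact permutation p = 0.3), and the arrays overlapped. These JJN3 values moved with single DMSO arrays, to -0.55 and -0.67 without array 1 and to -0.08 and -0.19 without array 3. The ratio of PSMB9 to PSMB6 changed by -0.71 with amiloride in KMS12-BM (exact permutation p = 0.1) and by -0.24 in JJN3 (exact permutation p = 0.1; -0.15 without DMSO array 3), and by 0.06 and 0.24 with TG003 (exact permutation p = 0.8 and 0.2). The ratio of PSMB10 to PSMB7 changed by between -0.33 and 0.30 with the drugs (exact permutation p from 0.1 to 0.3). Between the lines in DMSO, PSMB8 to PSMB5 was 2.15 and PSMB10 to PSMB7 2.63 higher in JJN3, whereas PSMB9 to PSMB6 was lower, at -0.90 (exact permutation p = 0.1 each). PSMB10 and PSMB9 lay below the background reference in KMS12-BM with DMSO, at means of 5.79 and 6.69, so these 2 ratio differences rest on signals near background. Both genes also lay below it in KMS12-BM with each drug, as did PSMB8. The drug changes of the ratios in that line share this limit.

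**Figure D4:**
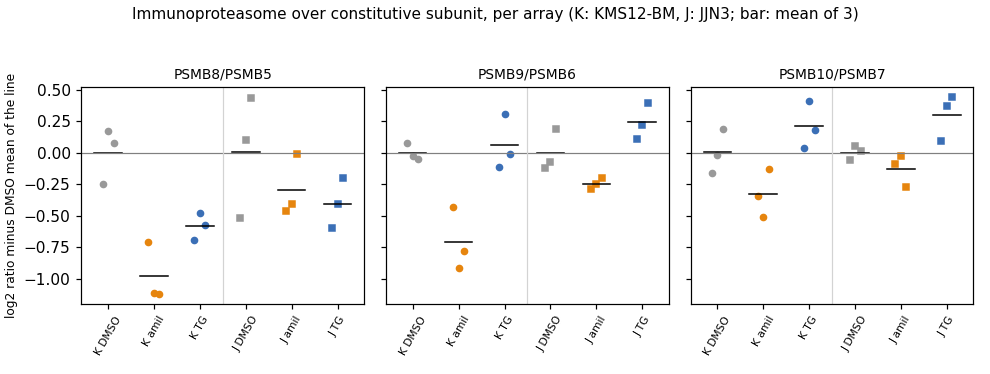
Log2 ratio of each immunoproteasome gene to its constitutive partner on each array, minus the mean of the DMSO arrays of the same line (vertical axis), by group (K for KMS12-BM, J for JJN3, amil for amiloride, TG for TG003). Points are arrays and black bars means of 3. PSMB8 to PSMB5 lies lower with both drugs in KMS12-BM, and the JJN3 DMSO arrays of that ratio spread widely.

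PSMB9 lies head to head with TAP1, the peptide transporter that carries proteasome products into the endoplasmic reticulum, and their starts are 488 bases apart on chromosome 6. The neighbours changed in opposite directions with amiloride in KMS12-BM, where PSMB9 lay below the background reference on all DMSO and amiloride arrays. TAP1 read 8.47, 8.26 and 8.54 with DMSO and 8.98, 9.25 and 9.11 with amiloride, a change of 0.69 ± 0.15 (adjusted p = 0.0015), where PSMB9 had fallen. With TG003 TAP1 fell in both lines, by 0.78 in KMS12-BM (adjusted p = 0.0019) and by 0.73 in JJN3 (adjusted p = 0.0048) on the log2 scale. With amiloride in JJN3 it changed by -0.24 (adjusted p = 0.38), and in DMSO it was higher in JJN3 by 0.95 (adjusted p = 4.7e-05), as PSMB9 was. Their promoters follow, PSMB9 at chr6:32853942-32854241 on the plus strand and TAP1 at chr6:32853655-32853954 on the minus strand. These windows share only the bases from 32853942 to 32853954. The same motifs are in capitals, with the interferon core on the opposite strand as TTTC, 2 bases and TTTC.
PSMB9: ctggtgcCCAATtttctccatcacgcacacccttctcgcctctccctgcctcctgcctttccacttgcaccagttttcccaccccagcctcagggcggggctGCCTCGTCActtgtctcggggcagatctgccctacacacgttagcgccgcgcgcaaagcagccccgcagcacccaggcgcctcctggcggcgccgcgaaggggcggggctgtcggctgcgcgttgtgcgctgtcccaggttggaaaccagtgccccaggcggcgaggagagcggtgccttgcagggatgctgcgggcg
TAP1: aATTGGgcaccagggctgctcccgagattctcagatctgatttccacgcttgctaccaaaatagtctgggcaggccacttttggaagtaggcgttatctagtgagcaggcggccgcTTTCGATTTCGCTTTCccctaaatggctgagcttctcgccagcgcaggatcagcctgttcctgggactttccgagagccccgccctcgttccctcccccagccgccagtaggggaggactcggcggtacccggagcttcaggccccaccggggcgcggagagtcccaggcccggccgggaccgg

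The TAP1 window holds the interferon core at -134 and at -128, where both matches overlap, and the PSMB9 window holds an antioxidant core at -148. The cores of both windows lie between the starts of the genes. The CCAAT box at -243 in PSMB9 and at -249 in TAP1 lies in the bases that the windows share. For the gene lists that follow, the shares among the genes above the reference were 36.0% higher and 24.2% lower with amiloride in KMS12-BM, and 20.0% and 12.3% in JJN3. With TG003 they were 16.3% and 14.4% in KMS12-BM and 7.08% and 12.0% in JJN3. Over all genes they were 17.0% and 13.6%, 8.65% and 6.12%, 8.30% and 6.52%, and 3.74% and 5.64% in the same order, and the medians were -0.025, -0.018, -0.009 and 0.021. The lists are short, and their counts are given as a description beside these shares, from which none is read as standing apart. Of 13 measured genes of antigen processing 5 rose and 6 fell with amiloride in KMS12-BM, 0 rose and 1 fell with amiloride in JJN3, 1 rose and 5 fell with TG003 in KMS12-BM, and 0 rose and 5 fell with TG003 in JJN3. Their medians were 0.26, 0.02, -0.23 and -0.13. The trimming peptidase ERAP1 had the largest change, -1.73 ± 0.09 (adjusted p = 1.7e-09) with amiloride in KMS12-BM, and ERAP2 there changed by -0.98 (adjusted p = 1.3e-06). The chaperone PDIA3, which loads peptides, was lower in all 4 comparisons, from -0.87 to -0.44, at an adjusted p of at most 0.016.

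Some regulators of proteasome genes changed with each drug, at shares of their list near those of the genes above the reference. NFE2L1 read 11.05, 11.02 and 10.95 with DMSO and 12.62, 12.76 and 12.66 with amiloride in KMS12-BM, a change of 1.67 ± 0.13 (adjusted p = 3.9e-08), with no overlap. In JJN3 amiloride changed it by -0.21 (adjusted p = 0.36), with 11.34, 11.31 and 11.25 on the DMSO and 11.24, 11.21 and 10.82 on the amiloride arrays. TG003 raised it in both lines, by 0.55 (adjusted p = 0.0067) and 0.65 (adjusted p = 0.0031). NGLY1, which strips the sugars from NFE2L1 on its way to the nucleus, fell with TG003 in both lines, by 0.45 and 0.53 on the log2 scale (adjusted p = 0.0012 and 5e-04). With TG003 in JJN3 the listed regulator NFE2L3 changed by -0.59 ± 0.11 (adjusted p = 0.002). NFYB, a subunit of the factor that binds CCAAT boxes, rose with amiloride by 2.27 in KMS12-BM (adjusted p = 1.4e-10) and by 0.71 in JJN3 (adjusted p = 0.00011). NFYA, another subunit of that factor, fell with amiloride in both lines, by 0.47 and 0.47 on the log2 scale (adjusted p = 0.0016 and 0.0049). NFE2L2, a relative of NFE2L1 that answers oxidative stress, passed in no drug comparison, with changes from -0.07 to 0.12. Of the 12 measured regulators 4 rose and 3 fell with amiloride in KMS12-BM, 2 and 1 in JJN3, and with TG003 1 and 2 in each line, with medians of 0.05, 0.08, -0.07 and -0.03.

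Some factors that build or place the proteasome changed as well. AKIRIN2, which brings proteasomes into the nucleus, read 10.45, 10.88 and 10.64 with DMSO, 11.65, 12.19 and 12.15 with amiloride and 9.61, 9.71 and 9.61 with TG003 in KMS12-BM, so the 3 groups did not overlap. Its change was 1.34 ± 0.13 (adjusted p = 6.8e-07) with amiloride and -1.01 ± 0.13 (adjusted p = 8.5e-05) with TG003. In JJN3 it changed by 0.50 (adjusted p = 0.016) and -0.44 (adjusted p = 0.048). IPO9, its import receptor, changed by -1.02 with amiloride and 0.56 with TG003 in KMS12-BM (adjusted p = 1.8e-06 and 0.0023). POMP, the chaperone that matures the core, rose with amiloride by 0.36 in KMS12-BM (adjusted p = 0.023) and by 0.68 in JJN3 (adjusted p = 0.00064). Among the 17 genes of this list 5 rose and 4 fell with amiloride in KMS12-BM, 4 and 1 in JJN3, and with TG003 5 and 2 in KMS12-BM and 2 and 1 in JJN3. Their medians were 0.04, 0.13, 0.01 and 0.05. The share that rose with amiloride in KMS12-BM was 36.0% and the share that fell 24.2% among the genes above the reference, and with TG003 there 16.3% and 14.4%. TXNL1, a thioredoxin of the regulatory particle, rose with amiloride in both lines, by 0.77 and 0.49 (adjusted p = 6.8e-07 and 0.00038). With TG003 in JJN3 the largest change of the list was that of ZFAND2A, 0.84 ± 0.12 (adjusted p = 0.00027). Its mean with DMSO there, 6.60, lay below the background reference. PITHD1 changed there by 0.38 ± 0.10 (adjusted p = 0.028). The subunit gene SEM1 lay below the background reference in all groups, and the proteasome's ubiquitin receptor ADRM1 changed by -0.28 to 0.15 with the drugs, at an adjusted p of at least 0.23.

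Upstream of the proteasome, VCP, the unfoldase that extracts ubiquitin-tagged proteins, read 13.47, 13.24 and 13.32 with DMSO and 12.73, 12.61 and 12.28 with amiloride in KMS12-BM, a change of -0.80 ± 0.11 (adjusted p = 1.5e-05). The shuttle factor UBQLN4 changed there by -1.14 ± 0.14 (adjusted p = 9.8e-06), and the ubiquitin-activating enzyme UBA1 by -0.73 ± 0.11 (adjusted p = 7.5e-05). Among these upstream genes UBXN7 had the highest estimate there, 0.77, with means of 10.27 with DMSO and 11.04 with amiloride. The VCP cofactor FAF2 rose by 0.74 in KMS12-BM and 0.75 in JJN3 (adjusted p = 1.9e-05 and 0.00011). Of 14 measured genes of this list 7 rose and 4 fell with amiloride in KMS12-BM and 3 and 0 in JJN3. With TG003 1 rose and 0 fell in KMS12-BM (2 and 1 at an unadjusted p under 0.05 in limma), and none passed in JJN3 (0 and 0 at that level). The medians were 0.32, 0.18, -0.11 and -0.02. The shares of the genes above the reference were again 36.0% and 24.2%, 20.0% and 12.3%, 16.3% and 14.4%, and 7.08% and 12.0%.

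**Figure D5:**
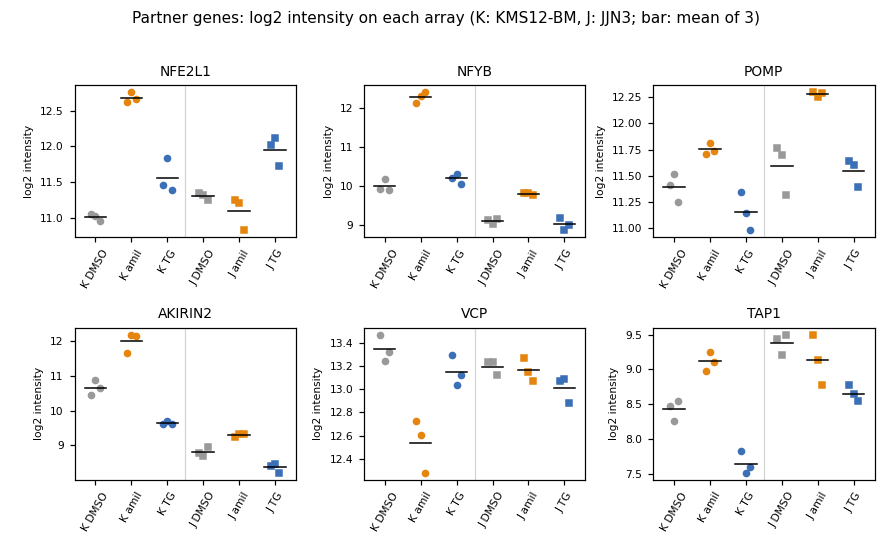
Log2 intensity (vertical axis) of 6 genes that regulate, place, mature or work beside the proteasome, on each of the 18 arrays by group (K for KMS12-BM, J for JJN3, amil for amiloride, TG for TG003). Points are arrays and black bars means of 3. NFE2L1, NFYB and AKIRIN2 lie highest with amiloride in KMS12-BM, and AKIRIN2 lies lowest with TG003 in each line.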

How the data were processed

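RNA of 18 samples was read on whole-transcript arrays, 3 in each of 6 groups taken from the sample labels. The deposited log2 values are RMA values of the authors, per the submitters' processing notes. Neither the RMA version nor a genome build was given in the sources used here. Of 70523 probe sets, 25324 are listed in the platform annotation, 23781 with 1 symbol and 1543 with several, which named no gene. The probe set with the highest mean over the arrays stood for each of 22465 genes. Array medians ran from 4.50 to 4.69, and correlations within a group from 0.9955 to 0.9984. The number of arrays limits the precision.

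One limma fit (limma 3.58.1, R 4.3.3) with 6 group means gave 7 contrasts, two-sided, with Benjamini-Hochberg adjustment and a threshold of 0.05. It was tested first on simulated data, for TG003 against DMSO in JJN3. There it recovered 62 of 100 simulated log2 changes of 0.5 and 88 of 100 of 1, with 10 false calls. A gene that did not pass may therefore still have changed by 0.5 or less. Ratios were tested by exact permutation (scipy 1.17.1). The members, gene lists and tests were chosen with earlier results of these data known. Named were, per contrast, up to 6 members with the largest called change, PSMB5 to PSMB10, PSME1 to PSME4 and PSMF1. Of the partner lists some called genes were named, not in every contrast those with the largest changes. POMP, SEM1, ADRM1, NFE2L1, NFE2L2, VCP and TAP1 were added to these. Others were named to account for every call. Alternatives were centring, quantile normalization, the mean of all probe sets, genes above the reference, the compared groups alone, limma-trend, a replicate block and leaving out each array.

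The array numbers come from serial codes in the titles. Deviations from the group means correlated over 0.1 for all 3 same-number pairs in 3 of 15 pairs of groups, namely DMSO with TG003 in KMS12-BM (0.28, 0.50 and 0.51), DMSO with TG003 in JJN3 (0.33, 0.50 and 0.51) and DMSO between the lines (0.23, 0.25 and 0.29). The numbers may therefore pair the arrays in these comparisons. The main fit did not use this pairing, so its p-values there ignore it. The replicate block, an alternative setting, applied the numbers to all 6 groups.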

Additional observations from a re-analysis of the deposited data

Results flagged for a closer look

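The following genes are listed because their response to a drug differed between the lines by the interaction term of limma (JJN3 minus KMS12-BM, log2 scale, adjusted over all genes). For amiloride the dose differed as well, so line and dose cannot be told apart. The amiloride differences were 1.51 for PSMA3 (adjusted p = 4.6e-05), 1.35 for PSMA8 (adjusted p = 0.00027), 1.02 for PSMD1 (adjusted p = 0.00028), 0.71 for PSMD2 (adjusted p = 0.00086) and 0.65 for PSMA1 (adjusted p = 0.003). They were 0.64 for PSMB8 (adjusted p = 0.013), 0.57 for PSMD12 (adjusted p = 0.0082), 0.52 for PSMD11 (adjusted p = 0.0035), 0.50 for PSMD14 (adjusted p = 0.0087), 0.49 for PSMC2 (adjusted p = 0.0035) and 0.47 for PSMD4 (adjusted p = 0.0072). PSMD10 had -0.46 (adjusted p = 0.0056), and 0.059 after a further quantile normalization. PSMB9 had 0.40 (adjusted p = 0.023), with 0.065 and 0.05 without KMS12-BM DMSO arrays 1 and 3, 0.064 without JJN3 DMSO array 1 and 0.061 without JJN3 amiloride array 1. PSMB2 had 0.34 (adjusted p = 0.02), with 0.056, 0.059 and 0.051 without KMS12-BM DMSO array 1, KMS12-BM amiloride array 2 and JJN3 amiloride array 2.

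For TG003, at the same dose in both lines, the differences were 1.04 for PSMA8 (adjusted p = 0.0093), 0.69 for PSME4 (adjusted p = 0.012) and -0.46 for PSMD10 (adjusted p = 0.021). In KMS12-BM all arrays of PSMA8 lay below the background reference, and the part of this in its difference was not tested.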

How the results depend on the processing

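Of 96 calls in 315 tests of members (limma, 7 contrasts), 71 held in all 25 alternative settings and 25 were lost in at least 1. Another 41 results passed in some setting, and 0 calls changed direction. In KMS12-BM with amiloride the number that rose went from 11 to 7 after a further quantile normalization. In JJN3 with amiloride the number that fell went from 0 to 1 after that normalization and with only the genes above the reference. With TG003 the number that fell in KMS12-BM went from 11 to 7 in the groups compared alone, and the number that rose in JJN3 from 2 to 1 with centring, in the groups compared alone and with limma-trend. The number with a lower amiloride response in JJN3 went from 1 to 2 with only the genes above the reference, in the groups compared alone and with the replicate block. For the TG003 response quantile normalization gave 4 higher and 0 lower in place of 2 and 1. The cause was not tested.

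With 1 array left out, with amiloride 7 to 13 rose and 9 to 12 fell in KMS12-BM, and 8 to 12 rose and 0 to 1 fell in JJN3. With TG003 1 rose and 6 to 13 fell in KMS12-BM, and 1 to 2 rose and 2 to 3 fell in JJN3. Between the lines 13 to 16 were higher and 16 to 18 lower. The amiloride response was higher in JJN3 for 11 to 14 and lower for 1 to 3, and the TG003 response higher for 2 to 3 and lower for 0 to 1. The replicate block moved no count of calls by over 1.5 times, except that lower amiloride response. Within-array ratios kept their sign when 1 array was left out, except PSMB9 to PSMB6 with TG003 in KMS12-BM (-0.06 to 0.15). Signal near the background reference limits PSMA8, PSMB8, PSMB9, PSMB10 and PSMD9.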

Other observations

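The genes in this paragraph have names built on those of proteasome genes but encode no subunit, and were chosen after their values were seen. PSMC3IP, which works in meiotic recombination, changed by -1.18 ± 0.07 (adjusted p = 7e-09) with amiloride in KMS12-BM and by 0.78 ± 0.07 (adjusted p = 5.8e-06) with TG003 there. In JJN3 its changes were -0.47 (adjusted p = 0.00044) and 0.21 (adjusted p = 0.093). PSMD5-AS1, the antisense gene of PSMD5, changed by -0.32 with amiloride in KMS12-BM (adjusted p = 0.035), where PSMD5 rose. With amiloride in JJN3, where PSMD5 rose too, it changed by 0.08 (adjusted p = 0.79), and with TG003 in JJN3 by 0.50 (adjusted p = 0.0089), where PSMD5 changed by 0.13 (adjusted p = 0.66). It was lower in JJN3 than in KMS12-BM in DMSO, at -1.67 ± 0.11 (adjusted p = 2.4e-09). PSME3IP1, which encodes a partner of the activator PSME3, was higher in JJN3, at 1.02 ± 0.09 (adjusted p = 1.1e-07).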
